A study of Mus musculus with 23 samples.

Results

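Described here are 9 genes that are best known from neurons and whose counts were lower in the mouse pancreas 7 days after caerulein injury than in uninjured pancreas: Shank1, Dlgap3, Chd5, Slc6a4, Nsg1, Nxph2, Cux2, Fxyd6 and Gng7. They are 9 of the 18512 gene symbols counted, and they were selected on the counts of the day 7 and baseline mice, by that difference. RNA was measured by RNA-seq in the head of the pancreas of 23 C57BL/6 mice that were 6 to 8 weeks of age and weighed 20 to 25 g, each mouse being 1 library. The baseline group was 8 non-injured mice, 4 females and 4 males. The day 7 group was 8 mice (4 females, 4 males) and the day 14 group 7 mice (3 females, 4 males), all given 50 µg/kg caerulein intraperitoneally, in 8 hourly injections on each of 2 consecutive days. Caerulein is a cholecystokinin analog that overstimulates the acinar cells and causes acute pancreatitis. The mice carried no genetic change, each time point was a different set of mice, and the labels name no injected control group. The libraries came from whole tissue, so fewer cells of a type and less RNA per cell cannot be told apart.

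The pancreas contains few neurons. Nerve fibres from autonomic and sensory ganglia reach it, and small intrapancreatic ganglia hold cell bodies, but most of the RNA of a fibre stays in a cell body outside the organ. Many genes used at synapses are also transcribed in the endocrine cells of the islets or in epithelial cells. Shank1 and Dlgap3 (also called SAPAP3) are scaffold proteins of the postsynaptic density, and Chd5 is a chromatin remodeler of the NuRD type. Slc6a4 is the serotonin transporter, Nsg1 (NEEP21) a protein of recycling endosomes, and Nxph2 a secreted ligand of alpha-neurexins. Cux2 is a cut-class homeobox transcription factor, Fxyd6 a regulator of the sodium pump, and Gng7 a gamma subunit of heterotrimeric G proteins.

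Markers of neurons had few counts and did not bear out the name of the group. Of 16 pan-neuronal markers, which included Rbfox3, Snap25 and Tubb3, 0 had enough counts to be tested. Snap25, the most counted of them, had 144 counts in the 23 mice together and 13 in the highest mouse, and Chat, the acetylcholine-synthesizing enzyme, had 2 in all mice together. The summed level of the 16 markers was 1.29, 1.94 and 5.50 CPM (the count relative to the library size, scaled by the trimmed mean of M-values, TMM) in the lowest, median and highest baseline mouse. At day 7 these values were 2.60, 3.33 and 5.13 CPM, and at day 14 they were 2.39, 4.42 and 4.998 CPM. The time points overlapped, and the medians after injury were not below that of baseline. The sum rested on 8 to 38 counts in a baseline mouse, and the 9 genes had been chosen for being lower at day 7. The sum therefore cannot decide whether RNA of neurons changed. The genes are therefore called by their own names below, and no level of theirs is taken as a measure of neurons.

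The libraries held 7059890 to 9567446 counts and 14641 to 16653 symbols with a count. The 20 most abundant genes, mostly digestive enzymes, took 69.4% ± 1.48 (SD, n = 8) of the baseline counts, 60.3% ± 2.43 (n = 8) of those of day 7 and 65.0% ± 0.869 (n = 7) of those of day 14, so the same count of a gene corresponded to a lower CPM after TMM scaling at day 7 than at baseline. Mice 5 (baseline), 10 and 15 (day 7) and 21 (day 14) stood apart on the first principal component, with scores of 37.0, 61.5, 46.7 and 39.4 against 20.1 or less in the other 19. The same 4 mice had the highest summed lymphocyte markers, 140.9, 259.9, 146.7 and 149.1 CPM, against 48.9 CPM or less in the others.

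Promoter sequences of the 9 genes were looked up as a description. The genes shared a direction at day 7 because they were chosen by it, which is no sign of a shared promoter element. RefSeq windows from 250 bases before to 50 bases after a start site (GRCm38.p6) were found for 7 genes, 10 windows in all. The sequences below are the windows of Nxph2 (chr2:23320996-23321295, plus strand), Fxyd6 (chr9:45369935-45370234, plus strand), Slc6a4 (chr11:76998347-76998646, plus strand) and Cux2 (chr5:122047776-122048075, minus strand), the last being 1 of 2 windows of its gene, read 5′ to 3′ along the gene. They are shown as the 3 windows that hold CAGCTG and 1 of the 2 that hold CAGATG, the other being that of Dlgap3. The capitals mark an E-box, the motif of neuronal and pancreatic bHLH factors, which is CAGCTG in the first 3 windows and CATCTG, the other strand of CAGATG, in Cux2.
Nxph2: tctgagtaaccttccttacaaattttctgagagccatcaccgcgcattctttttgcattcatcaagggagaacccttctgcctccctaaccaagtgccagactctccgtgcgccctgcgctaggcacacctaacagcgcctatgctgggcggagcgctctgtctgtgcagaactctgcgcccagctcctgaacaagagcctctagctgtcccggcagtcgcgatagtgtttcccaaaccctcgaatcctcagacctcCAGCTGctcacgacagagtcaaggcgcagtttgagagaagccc
Fxyd6: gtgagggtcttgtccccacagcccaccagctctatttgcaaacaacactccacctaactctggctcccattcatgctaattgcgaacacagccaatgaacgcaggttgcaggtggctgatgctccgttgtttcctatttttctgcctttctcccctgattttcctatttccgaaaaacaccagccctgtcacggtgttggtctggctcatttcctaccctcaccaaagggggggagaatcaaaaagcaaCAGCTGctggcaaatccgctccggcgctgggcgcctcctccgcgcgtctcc
Slc6a4: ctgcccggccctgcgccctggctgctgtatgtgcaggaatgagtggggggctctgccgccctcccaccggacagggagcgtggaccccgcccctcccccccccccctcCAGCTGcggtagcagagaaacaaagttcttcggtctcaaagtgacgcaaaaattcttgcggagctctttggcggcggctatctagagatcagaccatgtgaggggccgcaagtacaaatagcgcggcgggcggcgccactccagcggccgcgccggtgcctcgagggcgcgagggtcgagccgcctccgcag
Cux2: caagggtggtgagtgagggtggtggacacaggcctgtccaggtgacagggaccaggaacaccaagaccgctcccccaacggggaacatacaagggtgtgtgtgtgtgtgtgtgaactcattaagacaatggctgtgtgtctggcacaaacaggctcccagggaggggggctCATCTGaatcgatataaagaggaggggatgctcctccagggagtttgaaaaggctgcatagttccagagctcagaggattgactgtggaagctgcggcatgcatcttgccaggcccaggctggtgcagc

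The E-box starts 8 bases after the start site in Nxph2, at the base just before it in Fxyd6, at position -142 in Slc6a4 and at position -79 in Cux2, where position -1 is the last base before the start. On either strand, CAGCTG was in 3 of the 10 windows (3 genes) and in 16.3% of the 32851 windows of all genes. CAGATG was in 2 of the 10 windows (Cux2 and Dlgap3) and in 17.2% of all windows. The letters GGACAGC, the right part of the RE1 element at which REST silences neuronal genes, were in the window of Nxph2 (position -46, on the other strand) and in 6.56% of all windows. The left part, TTCAGCACC, was in 0 of the 10 windows and in 0.371% of all. The GC content of the 10 windows ran from 47.7% in Dlgap3 to 80.3% in the other window of Cux2. A match of letters describes the sequence and is not a binding site.

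Levels are given first for baseline. Per kilobase of annotated exon, Fxyd6 was highest with 6.71 ± 1.09 CPM per kb (mean ± SD, n = 8), followed by Nxph2 (2.89 ± 1.12), Nsg1 (1.97 ± 0.499), Shank1 (1.70 ± 0.405) and Slc6a4 (0.770 ± 0.309). Gng7 (0.565 ± 0.223), Cux2 (0.472 ± 0.107), Dlgap3 (0.447 ± 0.0850) and Chd5 (0.263 ± 0.127) were lower. Of the neighbours in this order, Fxyd6 and Nxph2, and Shank1 and Slc6a4, were separated by more than the sum of their SDs, and the others lay within theirs. All 9 passed the filter on low counts, but Dlgap3, Chd5, Slc6a4 and Gng7 had fewer than 10 counts in at least 1 mouse. A count of 3, the smallest taken as detectable, was 0.225 to 0.522 CPM depending on the mouse and covers counting error only.

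The postsynaptic scaffold Shank1 (chr7:44310253-44360572, plus strand, GRCm38) was at 12.5, 17.6 and 23.6 CPM in the lowest, median and highest of the 8 baseline mice. It was at 3.55, 7.36 and 10.5 CPM at day 7 and at 5.85, 10.9 and 15.1 CPM at day 14. All 8 day 7 mice lay below every baseline mouse, and at day 14 the range reached back into that of baseline, with 4 of 7 mice below all of it. Its day 7 minus baseline difference was -1.38 ± 0.12 on the log2 scale (± standard error, SE).

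Dlgap3 (chr4:127169204-127237022, plus strand), which binds Shank proteins in the postsynaptic density, had 6 to 18 counts per mouse. Its level was 1.23, 2.10 and 2.61 CPM at baseline, 0.602, 0.705 and 1.34 CPM at day 7, and 1.17, 1.52 and 2.02 CPM at day 14. Of the day 7 mice, 6 of 8 lay below every baseline mouse, whereas 1 of 7 did at day 14. The day 7 difference was -1.25 ± 0.21.

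Chd5 (chr4:152338651-152390194, plus strand) was at 1.13, 2.28 and 4.91 CPM at baseline, 0.674, 0.824 and 1.40 CPM at day 7, and 0.377, 1.63 and 3.51 CPM at day 14. The spread was wide in the uninjured mice and narrow at day 7, when 7 of 8 mice lay below all of baseline, and it was wide again at day 14, when 2 of 7 did. Its day 7 difference was -1.46 ± 0.32, on counts of 7 to 32 in those 2 groups. Of its exon bases 1.05% also belong to Gm13645 on the opposite strand.

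Slc6a4 (chr11:76998603-77032340, plus strand) takes serotonin back into neurons and is also used by gut epithelium and platelets. It was at 0.988, 3.31 and 5.75 CPM at baseline, 0.208, 1.16 and 3.01 CPM at day 7, and 0.897, 1.49 and 3.09 CPM at day 14. The groups overlapped, with 3 of 8 day 7 mice and 1 of 7 day 14 mice below every baseline mouse. The day 7 difference was -1.37 ± 0.32. Of 8 mast cell and platelet markers, 3 were tested and 0 were called at either time point under TMM scaling. Under total count scaling 1 was called higher at day 7. Summed duodenal epithelium markers were 49.6 CPM in mouse 19 at day 14, 6.56 CPM in mouse 21 and 2.24 CPM or less in the other mice. Slc6a4 was at 1.49 CPM in mouse 19, the median of its group.

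Nsg1 (chr5:38137192-38159907, minus strand) was at 3.95, 6.17 and 9.04 CPM at baseline, 1.96, 2.79 and 3.74 CPM at day 7, and 2.43, 3.64 and 4.08 CPM at day 14. All 8 day 7 mice and 6 of 7 day 14 mice lay below every baseline mouse. Its day 7 difference was -1.20 ± 0.16. Of the exon bases of Nsg1, 17.9% (574 bases) also belong to Stx18 on the opposite strand, and the strand setting of the counting is not given in the sources used here. Stx18 itself differed by -0.09 at day 7 and -0.16 at day 14 and was not called (adjusted p 0.552 and 0.553).

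Nxph2 (chr2:23321246-23401973, plus strand) was at 3.84, 7.33 and 12.5 CPM at baseline, 2.02, 4.65 and 8.82 CPM at day 7, and 2.58, 3.20 and 8.91 CPM at day 14. At day 14, 5 of 7 mice lay below all of baseline, against 3 of 8 at day 7, and the ranges of the 2 days overlapped. The day 7 difference of -0.64 ± 0.20 was the smallest of the 9 and the nearest to the 1.5-fold limit used here for calls. Among the related genes described below, Gnb5, a G protein beta subunit, lay just outside that limit with a difference of -0.58.

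Cux2 (chr5:121856366-122050102, minus strand) was at 2.58, 4.99 and 6.05 CPM at baseline, 2.47, 2.71 and 3.74 CPM at day 7, and 2.23, 2.87 and 3.22 CPM at day 14. The lowest baseline mouse, a male at 2.58 CPM, reached into the later ranges, so that 3 of 8 day 7 mice and 2 of 7 day 14 mice lay below every baseline mouse. The day 7 difference was -0.77 ± 0.15.

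Fxyd6 (chr9:45370185-45396159, plus strand) was at 20.2, 28.7 and 31.9 CPM at baseline, 11.7, 15.5 and 21.3 CPM at day 7, and 15.6, 17.7 and 18.5 CPM at day 14. At day 14 all 7 mice lay below every baseline mouse, in a narrow range. Before scaling, the Fxyd6 counts of baseline mice were 164 to 217, those of day 7 mice 134 to 191 and those of day 14 mice 129 to 172. These ranges overlapped, so the separation of the CPM values included the scaling of the libraries. The same held for the day 7 separations of Shank1 (72 to 173 counts at baseline, 38 to 116 at day 7) and Nsg1 (32 to 56 and 21 to 36). The day 7 difference of Fxyd6 was -0.80 ± 0.11.

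Gng7 (chr10:80948624-81014945, minus strand) was at 0.987, 2.29 and 3.21 CPM at baseline, 0.416, 0.896 and 1.42 CPM at day 7, and 0.638, 1.0045 and 2.23 CPM at day 14, on 4 to 26 counts per mouse. Of the day 7 mice 5 of 8 lay below all of baseline, and of the day 14 mice 3 of 7 did. The day 7 difference was -1.34 ± 0.30.

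**Figure D1:**
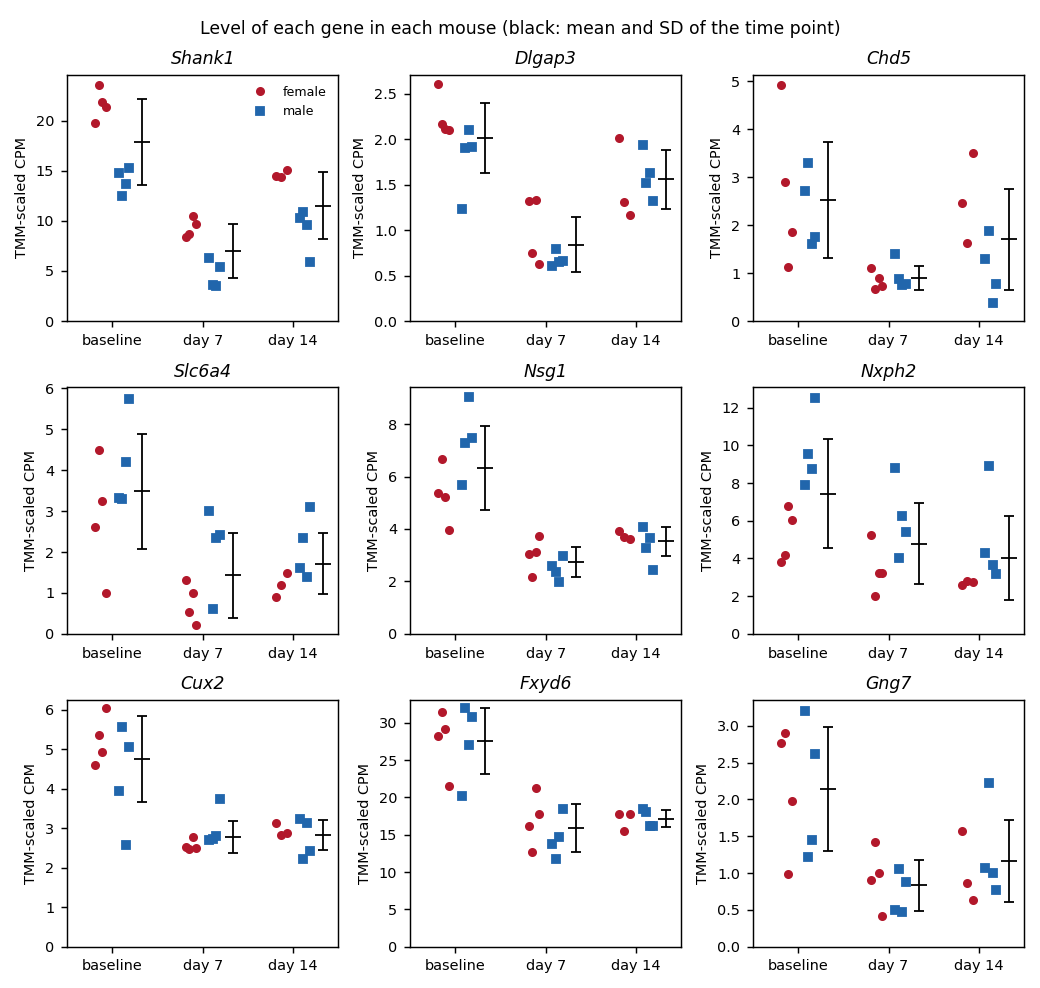
TMM-scaled CPM (vertical axis, from 0) of each of the 9 genes in each mouse at baseline, day 7 and day 14, with females as circles, males as squares, and the mean and SD of the time point in black. Every day 7 mouse lies below every baseline mouse for Shank1 and Nsg1, every day 14 mouse does for Fxyd6, and the females lie above the males at each time point for Shank1.

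A gene was called different when its adjusted p (edgeR quasi-likelihood test, Benjamini-Hochberg over 12195 genes) was at most 0.05 and its fold change at least 1.5. At day 7, 9 of 9 genes were called lower, which the choice of the genes fixed, where 1.31% of all genes tested were called lower and 3.82% higher. Their median difference was -1.25 (range -1.46 to -0.64), and the median over all genes tested was 0.02. A complete separation below baseline, seen for Shank1 and Nsg1, held for 1.59% of all genes.

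At day 14 the question was whether the lower levels had returned to baseline. The paper left out a female of this group because of poor mapping. By its mapping statistics, the day 14 libraries used differed from all baseline and day 7 libraries without overlap. They had a larger share of reads in coding exons and a smaller share in 5′ untranslated exons. The part of this in the day 14 differences was not tested and cannot be told apart from time. All 9 differences from baseline were still below 0, with a median of -0.74 (range -1.10 to -0.34) where the median over all genes was 0.01 and 48.4% of all genes were below 0. Of the 9 genes, 5 were called lower, where 0.0902% of all genes tested (11 genes) were called lower and 0.697% higher. The baseline mice also served to choose the 9 genes, so these differences are not independent of the choice. The day 7 difference that defined the choice used no day 14 mice, but earlier results of these data were known. The paper had already listed Nsg1, Cux2, Fxyd6 and Nxph2 as lower at day 14. The count of 5 is therefore a description and no independent support. Fxyd6, the regulator of the sodium pump, fell by 0.67 ± 0.11 on the log2 scale (adjusted p = 0.00104), the endosomal gene Nsg1 by 0.84 ± 0.17 (0.00529), and the homeobox gene Cux2 by 0.74 ± 0.15 (0.00874). These 3 calls held when any 1 of the 23 mice was left out, with adjusted p at most 0.0267. Under total count scaling Fxyd6 (-0.45, adjusted p = 0.00112) and Cux2 (-0.53, 0.0208) were under the fold limit and lost their calls, and in each sex alone both missed the adjusted p (at least 0.0925). Nsg1 lost its call in females alone (adjusted p = 0.457). A complete separation of day 14 below baseline, as in Fxyd6, was seen in 0.23% of genes.

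The calls of Shank1 and Nxph2 did not hold in every fit that left out 1 mouse. Shank1 fell by 0.59 ± 0.12 (adjusted p = 0.00573), a fold of 1.503 that lay just past the limit of 1.5. Its difference was under the fold limit in 8 of the 23 fits that left out 1 mouse, those without mouse 2, 5, 7 or 8 (baseline), 13 (day 7), or 17, 18 or 24 (day 14), with values as near to 0 as -0.51. The adjusted p stayed at or below 0.0201 in all 23. Nxph2 fell by 0.94 ± 0.22 (adjusted p = 0.0223), and its call was lost in 6 of 23 such fits, without mouse 8 (baseline), 17, 19, 21, 23 or 24 (day 14), with adjusted p up to 0.0599. Without sex in the model both calls were lost (adjusted p 0.193 for Shank1 and 0.202 for Nxph2). Of the 12 alternatives other than leaving out 1 mouse, the Shank1 call was lost in 7 and the Nxph2 call in 3.

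The other 4 genes did not pass the test at day 14. Slc6a4, with the largest difference of the 9, was at -1.10 ± 0.33 (adjusted p = 0.0964). It passed when the fit held only the baseline and day 14 mice (0.0227), when libraries were scaled by total counts (0.0478) and when mouse 4 was left out (0.0493), and it ranged from 0.0227 to 0.516 over the 11 alternatives in which it was tested. Gng7 was at -0.88 ± 0.31 (0.170), Chd5 at -0.57 ± 0.32 (0.46604) and Dlgap3 at -0.34 ± 0.21 (0.528). Each of these 4 had counts below 10 in some mice, and a p that misses the threshold does not show that the level was back at baseline.

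Between day 7 and day 14, which share no mice, 2 of the 9 genes were called higher at day 14, where 0.205% of all genes were called higher and 0.172% lower. The day 7 mice had served to choose the genes. Both were postsynaptic scaffold genes: Shank1 rose by 0.80 ± 0.12 (adjusted p = 3.70e-04), and Dlgap3 by 0.92 ± 0.22 (0.0269). Of 12 other postsynaptic scaffold genes tested, 0 were called between the days, with a median of 0.11 (range -0.88 to 0.57). Shank1 held in all 23 fits without 1 mouse, while Dlgap3 was lost in 7 of them, without mouse 12, 14 or 15 (day 7) or 17, 21, 22 or 23 (day 14), with adjusted p up to 0.0700. Among the other alternatives the Shank1 call was lost in 2 of 12, and the Dlgap3 call in 5 of the 11 that tested it. Of the day 14 mice, 4 of 7 lay above every day 7 mouse for Shank1, Dlgap3 and Chd5 alike. No member had all 7 above every day 7 mouse, which was seen in 0.41% of all genes. Chd5 was at 0.89 ± 0.33 (adjusted p = 0.195), Gng7 at 0.46 ± 0.32 (0.555), Nsg1 at 0.36 ± 0.17 (0.323) and Slc6a4 at 0.27 ± 0.34 (0.763). Fxyd6, at 0.13 ± 0.11 (0.653), and Cux2, at 0.03 ± 0.15 (0.941), had the smallest differences between the days, and Nxph2 alone was below 0, at -0.30 ± 0.22 (0.5683), where 53.7% of all genes were below 0.

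**Figure D2:**
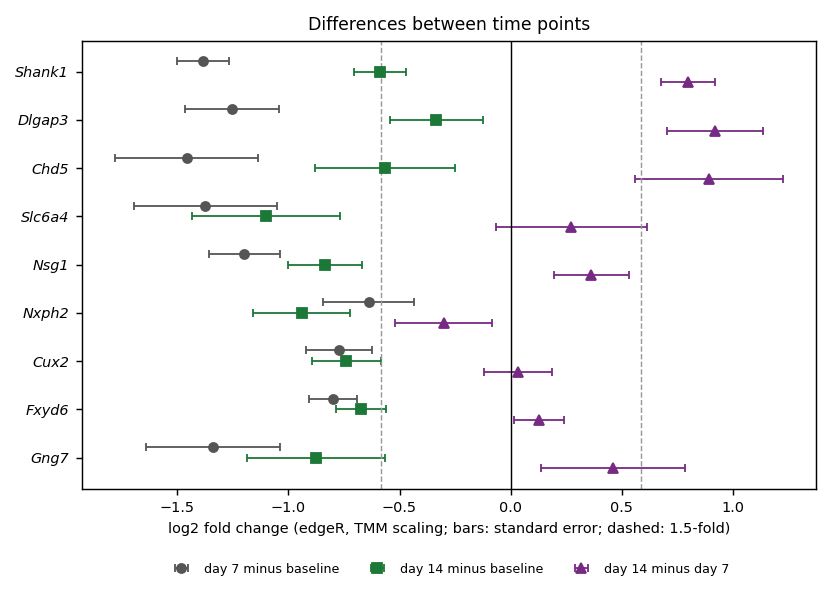
Log2 fold change (horizontal axis) of each gene for day 7 minus baseline (circles), day 14 minus baseline (squares) and day 14 minus day 7 (triangles), with bars of 1 SE and dashed lines at a 1.5-fold change. At day 14 all 9 squares lie below 0, from -1.10 for Slc6a4 to -0.34 for Dlgap3, and the triangles of Shank1, Dlgap3 and Chd5 lie between 0.80 and 0.92.

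The choice of scaling moved all differences together. When libraries were scaled by total counts, the median over all genes shifted by 0.45 at day 7 and 0.21 at day 14. The share of calls that were lower went from 25.6% to 0.563% at day 7, from 11.5% to 1.78% at day 14, and from 45.7% to 97.1% between day 14 and day 7. The 9 genes stayed below 0 at both time points under that scaling and lay 0.67 to 1.48 below the median of all genes at day 7 and 0.34 to 1.10 below it at day 14. The day 7 values are those by which the genes were chosen, and a change of scaling moves all genes together. Their place below the median at day 7 is therefore no separate support. At day 7, 6 genes were then called lower, and Nxph2 (-0.20), Cux2 (-0.33) and Fxyd6 (-0.35) were under the fold limit. At day 14, 3 genes were then called: Nsg1 (-0.61), Nxph2 (-0.72) and Slc6a4 (-0.88).

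**Figure D3:**
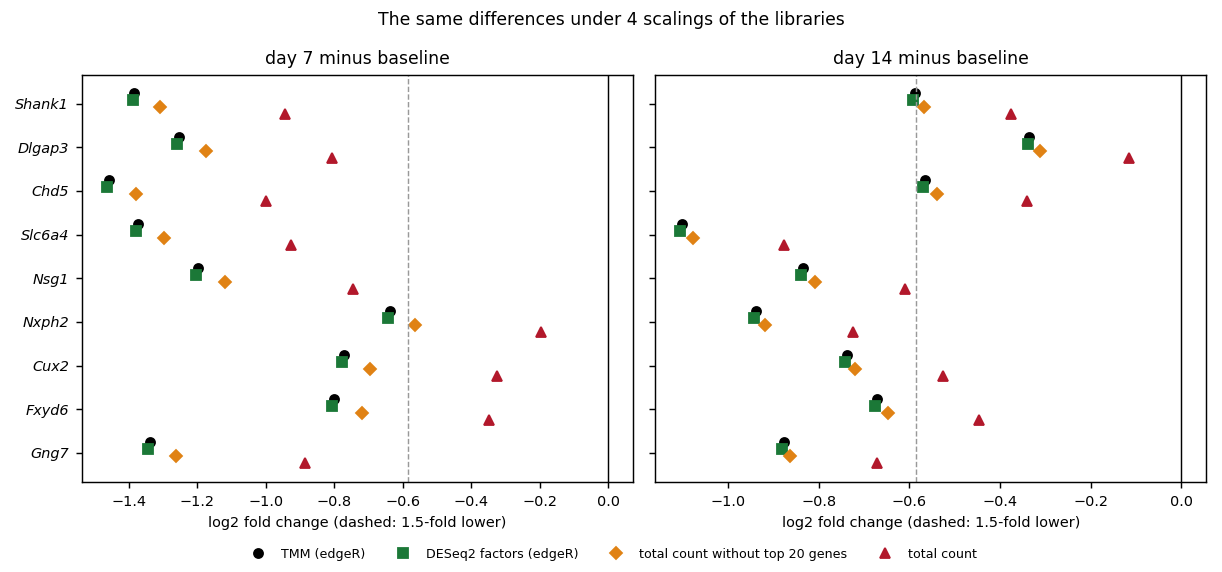
Log2 fold change against baseline (horizontal axis) of each gene at day 7 and day 14 under TMM scaling, DESeq2 size factors, total counts without the 20 most abundant genes, and total counts, with a dashed line at a 1.5-fold decrease. All points lie below 0, and total count scaling puts each point nearest to 0.

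The sexes were compared across the time points, a measure that the choice of the genes did not use. Of the 9 genes 2 were called different, where 0.23% of all genes tested were called (0.139% lower and 0.0902% higher in males), and they differed in opposite directions. Shank1 was higher in females at every time point. At baseline the 4 females had 19.8 to 23.6 CPM and the 4 males 12.5 to 15.3 CPM. At day 7 the females had 8.41 to 10.5 CPM and the males 3.55 to 6.32 CPM, and at day 14 the 3 females had 14.4 to 15.1 CPM and the 4 males 5.85 to 10.9 CPM. The sexes did not overlap at any time point, which was so, with females higher, for 0.0574% of all genes (7 genes). The male minus female difference was -0.75 ± 0.10 (adjusted p = 2.50e-05), and it held in all 23 fits without 1 mouse (adjusted p at most 9.01e-05). The annotated gene 1700008O03Rik, which shares 3.22% of the exon bases of Shank1 on the opposite strand, had at most 1 count in any mouse.

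Nxph2 was higher in males. At baseline the males had 7.89 to 12.5 CPM and the females 3.84 to 6.77 CPM. At day 7 the ranges overlapped, with 4.03 to 8.82 CPM in males and 2.02 to 5.27 CPM in females, and at day 14 they were 3.20 to 8.91 CPM in males and 2.58 to 2.83 CPM in females. The male minus female difference was 0.86 ± 0.17 (adjusted p = 0.0146), and it held in all 23 fits without 1 mouse (at most 0.0362). Slc6a4 was at 0.91 ± 0.27 and did not pass (adjusted p = 0.168), and the differences of the other 6 genes lay between -0.41 and 0.04 (adjusted p at least 0.729). With the time point left out of the model, 0 of the 9 genes were called, Shank1 being at adjusted p = 0.445 and Nxph2 at 0.210.

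Whether the response to injury differed between the sexes was tested as an interaction over 12933 genes. No member passed by the edgeR quasi-likelihood test at day 7 or at day 14 (0 of 9 each), where 0.00773% of genes (1 gene) passed at day 7 and 0 at day 14. At each time point 1 of the 9 genes had an unadjusted p under 0.05, where 5.45% of all genes did at day 7 and 3.66% at day 14. A count of 1 gene is too small to be set apart from these shares. The gene was Nsg1, with a decrease larger in males by 0.75 ± 0.29 at day 7 (adjusted p = 0.847) and by 0.64 ± 0.30 at day 14 (adjusted p = 0.99996). Both interactions used the same baseline mice, so they are not separate observations. In Nsg1 the baseline males had 5.67 to 9.04 CPM and the baseline females 3.95 to 6.66 CPM, while the ranges at day 7 were 1.96 to 2.97 and 2.17 to 3.74 CPM.

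Relatives of the 9 genes in their protein families or pathways were called in few cases. Of 15 postsynaptic scaffold genes other than Shank1 and Dlgap3, 12 were tested. Shank3, a close relative of Shank1, was called lower at day 7 (-0.86 ± 0.23, adjusted p = 0.00906) but not at day 14 (-0.29 ± 0.23, 0.656), and the other 11 were not called at either time. Shank2 was at -0.06 and 0.06, and the 2 most abundant members, Homer2 and Dlg1, were at -0.41 and -0.10 at day 7. The median of the 12 was -0.19 at day 7 and -0.08 at day 14, with 10 and 9 of 12 below 0. Under total count scaling 1 and 2 of the 12 were below 0, Shank3 was not called lower, and 2 genes were called higher at day 7. Of 12 FXYD and sodium pump genes, 7 were tested, and Fxyd1, a regulator of the pump best known from heart and muscle, was called lower at both times, by -0.89 ± 0.17 at day 7 (adjusted p = 5.75e-04) and -0.69 ± 0.18 at day 14 (0.0424). It was not called under total count scaling. At day 7 and day 14 the 7 genes had medians of 0.20 and 0.02, with 5 above 0 and 2 below 0 at each time. Fxyd1 and the pump subunit Atp1b3 (-0.16) were the 2 below 0 at day 7, when the highest of the 7 was at 1.01.

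The remaining families had 0 calls at day 7 and at day 14 under TMM scaling. Under total count scaling 5 remodelers, 5 G protein subunits, 1 neurexin partner and 1 cut-class gene were called higher at day 7. At day 14 this was so for 1 G protein subunit. The values below are those under TMM scaling. All 19 NuRD and CHD remodelers were tested, with a median of -0.05 at day 7, and the most abundant, Chd4 and Chd8, were at -0.24 and -0.14. Of 16 serotonin genes other than Slc6a4 only 3 had counts to test (Ddc, Maoa and Maob, at 0.13, -0.03 and -0.43 at day 7). Of the NSG family and its endosomal partners 5 were tested (median -0.02, with Sorl1 at -0.27 and Rab11a at 0.07). Of the neurexophilins and neurexin partners 2 were tested, Nlgn2 at -0.01 and the other at 0.51. Of the heterotrimeric G protein subunits 17 were tested (median 0.03, with Gnas at -0.27 and Gnai3 at 0.04). The 4 cut-class genes tested had a median of 0.46 at day 7, with 3 above 0 and the highest at 0.86. Onecut1 was at 0.10. Cux1, the relative of Cux2, differed by -0.47 ± 0.05 at day 7 with a low adjusted p of 5.08e-07 but under the fold limit. At day 14 Cux1 differed by -0.19 ± 0.05 (0.0764).

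Marker RNA of several cell types also differed between the time points, and these values stand beside the decrease of the 9 genes. Acinar markers, which summed to 423873 to 627866 CPM at baseline, 250383 to 377685 CPM at day 7 and 387953 to 468834 CPM at day 14, had 8 of 15 genes called lower at day 7 and 0 at day 14, with medians of -0.62 and -0.28. The largest decreases were those of Sycn (-1.15), Prss2 (-0.94) and Pnlip (-0.88), and under total count scaling 1 of the 15 was called lower at day 7. Islet endocrine markers moved the other way. They summed to 140 to 588 CPM at baseline, 431 to 1234 CPM at day 7 and 455 to 912 CPM at day 14, and 9 of 15 tested were called higher at day 7, led by G6pc2 (1.45), Iapp (1.11) and Ins1 (1.04), and 0 at day 14, with all 15 above 0 at both times. Under total count scaling 14 of the 15 islet markers were called higher at day 7 and 8 at day 14. The part of these marker changes in the levels of the 9 genes was not tested.

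**Figure D4:**
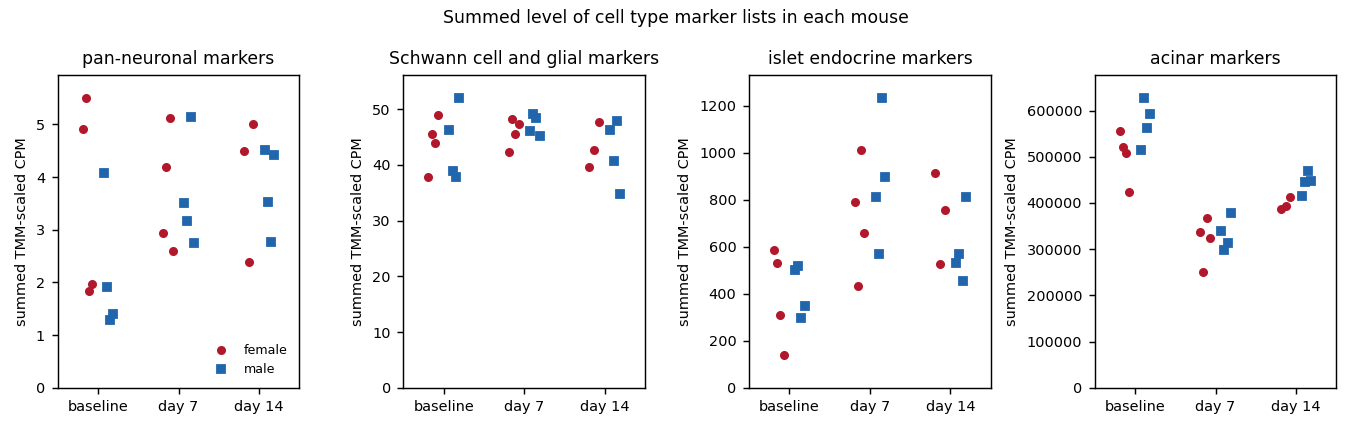
Summed TMM-scaled CPM (vertical axes, from 0) of 16 pan-neuronal, 10 Schwann cell and glial, 18 islet endocrine and 15 acinar markers in each mouse, with females as circles and males as squares. Pan-neuronal markers reach at most 5.50 CPM, acinar markers are lower at day 7 than at baseline without overlap, and islet markers are spread over overlapping ranges.

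Of 10 Schwann cell and glial markers, which accompany nerve fibres, 4 were tested and 1, Cdh19, was called higher at day 7 (1.62). Their summed level was 37.8 to 52.1 CPM at baseline, 42.4 to 49.2 CPM at day 7 and 34.8 to 47.8 CPM at day 14, overlapping ranges. Macrophage markers had 7 of 8 genes called higher at day 7, led by Ms4a7 (1.86), and 0 at day 14. Fibroblast and stellate markers had 7 of 9 called higher at day 7, led by Lum (1.41), and 2 at day 14, and ductal markers 3 of 8, led by Car2 (1.84), and 0. Lymphocyte (5 tested), endothelial (6), smooth muscle (5) and adipocyte markers (5) had 0 calls at day 7 and day 14 against baseline, and 0 of the duodenal markers could be tested. These calls are under TMM scaling. Under total count scaling 1 endothelial and 1 smooth muscle marker were called higher at day 7. At day 14, 5 fibroblast, 1 macrophage and 1 ductal marker were then called higher.

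Variation from mouse to mouse was compared between the 9 genes. After the time point and sex were taken out of the log2 CPM values, the 36 pairs had Pearson correlations of -0.20 to 0.59 over 23 mice, with a median of 0.09 and 10 pairs below 0. The highest was between Nsg1 and Fxyd6 (0.59), followed by Shank1 and Nsg1 (0.55). The mice share libraries and scaling factors, and these values are a description. The genes named next had the highest correlations among all genes tested, so high values come in part from that selection. The genes most like Nsg1 were Ivd (0.85), Ppp1r3d (0.77) and the elastase Cela1 (0.76), and those most like Fxyd6 were Mettl7a1 (0.84), the elastase Cela3b (0.83) and Myo6 (0.81). Cela1 and Cela3b were themselves among the acinar markers called lower at day 7 (-0.62 and -0.74). The genes most like Chd5 were Pcsk1n (0.82), a prohormone convertase inhibitor of neuroendocrine cells, Usp40 (0.81) and Mpzl1 (0.71). Counts were low, at 0 to 19 per mouse for Pcsk1n and 3 to 33 for Chd5. Pcsk1n differed in the other direction from Chd5 at day 7 and was not called (1.28, adjusted p = 0.0539). The genes most like Shank1 were AI661453 (0.77), Zadh2 (0.77) and Safb (0.76), and those most like Slc6a4 were Foxo6 (0.78), Rfesd (0.76) and Smim7 (0.76). For Dlgap3 they were Tcp11l1, Slc44a3 and Ankrd26 (0.71 to 0.73), for Nxph2 Nr3c2, Tcf4 and Lzts2 (0.70 to 0.75), for Cux2 Ubald2, Gm7367 and Ehmt2 (0.74 to 0.80), and for Gng7 Actn4, Map3k4 and Tanc1 (0.74 to 0.76).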

How the data were processed

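RNA of 23 pancreas heads (total RNA) was depleted of ribosomal RNA, prepared with a stranded kit and sequenced as paired 75 bp reads. The authors trimmed the reads with Trim Galore and Cutadapt, aligned them to mm10 with STAR 2.5.2a and deposited fragment counts per gene symbol from featureCounts, for uniquely mapped fragments. The annotation and strand setting are not given in the sources used here. The counts, 18512 symbols per mouse, were all whole numbers. They were tested in R 4.3.3 with limma 3.58.1 and edgeR 4.0.16, by TMM scaling, filterByExpr, glmQLFit with robust = TRUE and glmQLFTest, in 1 fit of 23 mice with time point and sex (12195 genes) and, for the interactions, in 1 fit with 6 groups of sex and time (12933 genes). P-values are two-sided and adjusted by Benjamini-Hochberg over all genes tested; a call also needed a 1.5-fold change, except for interactions. The SE of a log2 fold change was derived from the F statistic, so it restates the test. The CPM values were computed from the counts with TMM factors of 0.769 to 1.40, and log2 CPM used a prior count of 2.

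The members and the gene lists were chosen with earlier results of these data known. All 9 members were named, and of each related list the called genes and the 2 most abundant. Values of some genes of these lists are not reported here. Where 1 value is quoted for other related genes, it was picked after its values were seen. Of each cell type list at most the 3 called genes with the largest difference at day 7 were named, and for each member the 3 genes with the highest correlation. Each mouse is 1 sample from 1 animal, and the numbers of the mice differ between groups, so that no pairing exists. Within groups, 77 pairs of libraries differed by more than counting error (chi-square per degree of freedom 4.33 to 37.2). The alternatives were DESeq2 1.42.0, other scalings, other filters, only the mice compared, no covariate, each sex alone, leaving out each mouse in turn, and, chosen after the data were seen, leaving out the 4 mice apart on the first principal component. The tests were checked on simulated counts. Gene positions and exon lengths are from GENCODE vM21 (GRCm38), promoter sequences from RefSeq (GRCm38.p6). 0 columns of the files were left unused.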

Additional observations from a re-analysis of the deposited data

Results flagged for a closer look

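Within a time point, 5 of the 27 sets of values (9 genes in 3 groups) had 1 mouse far from the others by Dixon's test on log2 CPM. Chance gives about 1 such set in 20. In Dlgap3, baseline mouse 5 was at 0.55 and the nearest mouse at 1.10, on 10 counts. In Slc6a4, baseline mouse 4 was at 0.28 with the nearest at 1.51, on 8 counts, and without this mouse the day 14 difference passed the test (adjusted p = 0.0493 in place of 0.0964). In Nsg1, day 14 mouse 24 was the lowest at 1.41, the nearest being at 1.81. In Nxph2, day 14 mouse 22 was high at 3.19, the nearest being at 2.18, and without it the day 14 difference from baseline was -1.16 in place of -0.94. In Cux2, day 7 mouse 16 was high at 1.99 with the nearest at 1.60. Mouse 5 is also 1 of the 4 mice that stood apart on the first principal component. The causes were not tested.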

How the results depend on the processing

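The count of the 9 genes called at day 7 was 5 with at least 10 counts required in every mouse, a filter that only 5 of them pass. It was 6 under total count scaling, 6 in females alone, 5 in males alone, and 8 to 9 without 1 mouse. At day 14 against baseline it was 3 under total count scaling, 3 without sex in the model, 0 in females alone, 1 in males alone (Nsg1), where fewer mice were compared, and 3 to 6 without 1 mouse, the lowest without mouse 8, 17 or 24. For day 14 against day 7 it was 1 under total count scaling, with no filter, with at least 10 counts, with only the mice compared, without sex in the model, in females alone, in males alone and without the 4 mice apart on the first component, and 1 to 2 without 1 mouse. For the sexes it was 0 without the time point in the model and 2 to 2 without 1 mouse, and for the interactions 0 throughout. DESeq2 and its size factors changed none of these counts by over 1.5 times. The cause was not tested beyond the fewer mice or genes named.

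Over all genes, calls at day 7 went from 626 to 3727 under total count scaling, 348 with at least 10 counts, 2264 by adjusted p alone and 234 in females alone. At day 14 they went from 96 to 449, 192 by adjusted p alone, 31 in females alone and 12 in males alone. For day 14 against day 7 they went from 46 to 71 with DESeq2, 477 under total count scaling, 30 with at least 10 counts, 157 by adjusted p alone, 5 in females alone and 22 to 57 without 1 mouse. For the sexes they went from 28 to 45 with DESeq2, 16 with at least 10 counts, 17 without the time point and 70 by adjusted p alone, and for the day 7 interaction from 1 to 0 with no filter, 5 without the 4 mice and 0 to 7 without 1 mouse. Total counts without the 20 most abundant genes gave shares of lower calls of 14.3% at day 7, 8.82% at day 14 and 70.5% for day 14 against day 7. Under total count scaling 73.0% of the calls between the sexes were lower in males in place of 60.7%.

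Only small differences that passed no test changed sign. For day 14 against day 7, Cux2 was at -0.20 under total count scaling, -0.024 when the top 20 genes were left out of the totals, -0.11 in males, -0.027 without the 4 mice and -0.0058 to 0.12 without 1 mouse, and Fxyd6 was at -0.10 under total count scaling. For the sexes, Nsg1 was at -0.037 under total count scaling and -0.029 to 0.089 without 1 mouse, Gng7 at 0.027 without the 4 mice and -0.15 to 0.073 without 1 mouse, and Cux2 at -0.11 to 0.011 without 1 mouse. For the day 7 interaction, Nxph2 was at 0.045 under total count scaling and -0.28 to 0.25 without 1 mouse, Gng7 at 0.35 without the 4 mice, and Chd5 at -0.10 to 0.61 without 1 mouse. For the day 14 interaction, Nxph2 was at 0.055 under total count scaling, 0.023 when the top 20 genes were left out of the totals and -0.44 to 0.16 without 1 mouse, and Fxyd6 at -0.14 without the 4 mice and -0.11 to 0.14 without 1 mouse. There Shank1 was at -0.16 to 0.10, Slc6a4 at -0.060 to 0.56 and Gng7 at -0.10 to 0.73 without 1 mouse. No paired analysis was possible because the groups share no mouse numbers.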
